A study of Homo sapiens with 72 samples.

Results

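CCN1, CCN2, ANKRD1, AMOTL2, LATS2, AJUBA and AXL are 7 genes commonly used to read out the activity of the transcriptional co-activator YAP. They were found by gene symbol in all 11 differential expression tables from work on the RNA-binding protein G3BP1, and are 7 of 61541 genes listed in each table. Each symbol matched 1 row: CCN1 (ENSG00000142871), CCN2 (ENSG00000118523), ANKRD1, AMOTL2, LATS2, AJUBA and AXL. All 7 passed the authors' filter on low reads in every table.

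YAP and its paralog TAZ (encoded by WWTR1) are the effectors of the Hippo pathway. The Hippo kinases MST and LATS phosphorylate them and keep them out of the nucleus; when they are not phosphorylated they enter the nucleus and switch on genes together with the DNA-binding TEAD factors. CCN1 and CCN2 encode secreted matricellular proteins, and ANKRD1 encodes a nuclear and sarcomeric ankyrin-repeat protein. AMOTL2 and LATS2 are targets that act back on the pathway as inhibitors of YAP. AJUBA encodes a LIM-domain adaptor that restrains LATS kinases, and AXL a receptor tyrosine kinase for the ligand GAS6.

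The cells in 10 of the tables are U2OS, a human osteosarcoma line. G3BP1 and its paralog G3BP2 nucleate stress granules, the RNA and protein bodies that form in the cytoplasm when translation stalls, and G3BP1 forms dimers through its NTF2 domain. In the first experiment wild-type cells without treatment, G3BP1/2 knockout cells without treatment and knockout cells 24 h after Lipofectamine transfection of a G3BP1 transgene were sequenced, with 2 libraries each. The second experiment had 6 groups of 2 libraries, all in the G3BP1/2 knockout: untransfected cells (KO), cells 24 h after transfection of wild-type G3BP1 (WT-rescue), and cells 24 h after transfection of G3BP1 with its NTF2 domain deleted (NTF2-rescue), each without treatment and with 200 uM sodium arsenite for 2 h. Arsenite is an oxidative stressor that triggers stress granules. The remaining table compares 3 immunoprecipitates with 3 inputs of an RNA immunoprecipitation (RIP) from Flp-In T-REx 293 cells, a human embryonic kidney line, which carry a stable FLAG-G3BP1 and were given 1 ug/mL tetracycline for 24 h to switch it on. No group was mock-transfected, so the effect of G3BP1 in a rescue cannot be told apart from that of transfection. Whether the knockout is 1 clone, and which promoter drives the transgenes, is not given in the sources used here.

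The reads behind each library were worked out exactly from the deposited base means, and gene reads per library ran from 38.6 to 52.5 M (1e6) in the first experiment and from 10.8 to 27.8 M in the second. The targeted gene was still transcribed in the knockout: G3BP1 stood at 18087 and 19023 normalised reads in the wild-type libraries and at 12603 and 12628 in the knockout libraries of the first experiment, a level of RNA that says nothing about the protein. The first rescue brought G3BP1 to 20087 and 20375 normalised reads. In the second experiment it rose from 3815 and 3884 in KO to 591137 and 621709 in WT-rescue, and to 804718 and 839200 in NTF2-rescue. G3BP1 RNA in the rescue was thus 1.60 times the knockout level in the first experiment and 158 times in the second. Of 6 mesenchymal markers of U2OS cells, VIM, COL1A1, SPARC, RUNX2 and CDH2 averaged at least 100 normalised reads over the libraries of each experiment, while COL1A2 had 4.2 to 14.5 in the second; the 6 summed to 29810 to 52920 there. The sum was 53.2 to 132 for the epithelial markers EPCAM, CDH1 and ESRP1, 14.7 to 146 for the endothelial markers PECAM1, VWF and CDH5, 0 to 6.2 for the leukocyte marker PTPRC, and 892 to 1256 for 5 markers of 293 cells, most of it NEFL (775 and 814 in KO). In bulk RNA, fewer cells expressing a gene and less RNA per cell cannot be told apart.

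TEAD factors bind the letters GGAATG, so the 250 bases before each start site were read for them on both strands, in RefSeq promoters of GRCh38.p14. Of the 7 genes 6 matched by symbol, with 9 promoters. CCN1 had no entry there, so its promoter was not read. CCN2 and ANKRD1 are shown because they held the most matches among these 6 genes and had the largest arsenite responses described next; capitals mark GGAATG.

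CCN2, chr6:131951373-131951622, minus strand: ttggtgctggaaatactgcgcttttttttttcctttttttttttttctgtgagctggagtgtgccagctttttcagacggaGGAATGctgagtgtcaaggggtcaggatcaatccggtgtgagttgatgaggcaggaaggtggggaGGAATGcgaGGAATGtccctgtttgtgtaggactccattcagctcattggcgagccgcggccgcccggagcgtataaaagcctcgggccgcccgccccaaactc
ANKRD1, chr10:90921088-90921337, minus strand: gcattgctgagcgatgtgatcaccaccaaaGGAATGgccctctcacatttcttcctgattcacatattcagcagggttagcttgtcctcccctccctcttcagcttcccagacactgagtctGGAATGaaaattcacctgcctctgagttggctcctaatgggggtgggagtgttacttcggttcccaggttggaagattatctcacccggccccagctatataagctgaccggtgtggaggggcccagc

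CCN2 held 3 matches, beginning 169, 104 and 95 bases before the start site, and the last pair of these are separated by only a few bases. ANKRD1 held 2, beginning 220 and 128 bases before it. Of 35116 RefSeq promoters of this length 11.9% held at least 1 match, 0.94% at least 2 and 0.0826% at least 3. A single match lay in 1 of 2 promoters of AMOTL2, AJUBA and AXL each. In each gene that promoter belonged to the start site inside the gene, which is the start named below. The promoter of the outermost start site held no match. Each match is shown for comparison with its neighbouring bases, with the match or its reverse complement in capitals.

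AMOTL2, 69 bases before the start, minus strand of the promoter: aaactctcaCATTCCtggcatagc
AJUBA, 59 bases before the start, plus strand: aagttggctGGAATGaagccaaag
AXL, 212 bases before the second start, minus strand: actttgcacCATTCCactccctcc

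LATS2 had no GGAATG in its promoter. TGANTCA, a loose form of the AP-1 site TGASTCA (N any base, S only C or G), is present in 6.57% of promoters on either strand. Among the 6 genes read it was found in ANKRD1 alone, 195 bases before the start, and overlaps no GGAATG. The match there reads TGATTCA, so none of the 9 promoters holds the stricter site. The CArG box, the site of serum response factor (SRF), is present in 1.16% of promoters and in none of the 9. These letters describe the sequence and not binding.

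Arsenite raised CCN1, CCN2 and ANKRD1 strongly in knockout cells, whereas in both rescues CCN1 and CCN2 fell and ANKRD1 rose far less. In knockout cells 6 of the 7 genes rose and AXL fell, whereas 8.56% of all tested genes rose and 10.9% fell in that table (authors' adjusted p under 0.05). In WT-rescue 2 of the 7 rose and 3 fell (8.18% and 12.2% of all genes), and in NTF2-rescue 1 rose and 3 fell (2.43% and 6.14%). Of 5 tested mesenchymal markers 3 fell and none rose in each of the 3 backgrounds, and in KO their sum with COL1A2 went from 52535 and 52920 to 36736 and 37926; its part in the result was not tested. The next paragraphs take the genes by role.

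CCN1 encodes a secreted protein of the extracellular matrix that signals through integrins. Its normalised reads were 4961 and 5056 in KO and 27210 and 25241 in KO with arsenite. They were 15799 and 15736 in WT-rescue and 8448 and 8522 in WT-rescue with arsenite. NTF2-rescue held 14959 and 14502 without and 7748 and 7409 with arsenite. The libraries of each group lay apart from those of every other group: the treated knockout was highest, both untreated rescues followed, both treated rescues came next and the untreated knockout was lowest. The authors' deposited table gave a log2 fold change with arsenite of 2.38 ± 0.06 (standard error) in knockout cells; its adjusted p is given there as 0. In the authors' deposited tables for the rescues, the same treatment gave -0.91 ± 0.03 (adjusted p 1.89e-175) in WT-rescue and -0.94 ± 0.04 (adjusted p 7.39e-118) in NTF2-rescue. Arsenite thus moved CCN1 in opposite directions in the knockout and in both rescues.

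CCN2, the closest relative of CCN1 in the set, also encodes a secreted matricellular protein and is the most used single readout of YAP. It counted 4819 and 4534 normalised reads in KO and 41867 and 39944 with arsenite, a ratio of means of 8.75. WT-rescue held 8895 and 9496 without and 8178 and 7836 with arsenite, and NTF2-rescue 9874 and 9528 without and 8413 and 8320 with it. Every rescue library therefore lay above the untreated knockout and far below the treated one. The log2 fold change with arsenite in the authors' deposited tables was 3.12 ± 0.06 in KO, -0.21 ± 0.04 in WT-rescue (adjusted p 8.83e-07) and -0.21 ± 0.04 in NTF2-rescue (adjusted p 1.11e-05). With the first library of untreated WT-rescue alone, limma gave -0.15 in WT-rescue, which no longer passed.

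ANKRD1, a stress-responsive ankyrin-repeat protein of muscle and other adherent cells, started from 2091 and 2040 normalised reads in KO and reached 16383 and 17849 with arsenite. WT-rescue held 9476 and 9588, and 11704 and 11562 with arsenite. NTF2-rescue held 7706 and 7897, and 9408 and 9376 with arsenite. No 2 groups overlapped, and the treated knockout was again the highest. Unlike both CCN genes, ANKRD1 rose with arsenite in the rescues too. The authors' deposited tables gave log2 fold changes of 3.03 ± 0.07 in KO, 0.27 ± 0.03 in WT-rescue (adjusted p 8.39e-15) and 0.26 ± 0.04 in NTF2-rescue (adjusted p 7.26e-09).

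**Figure D1:**
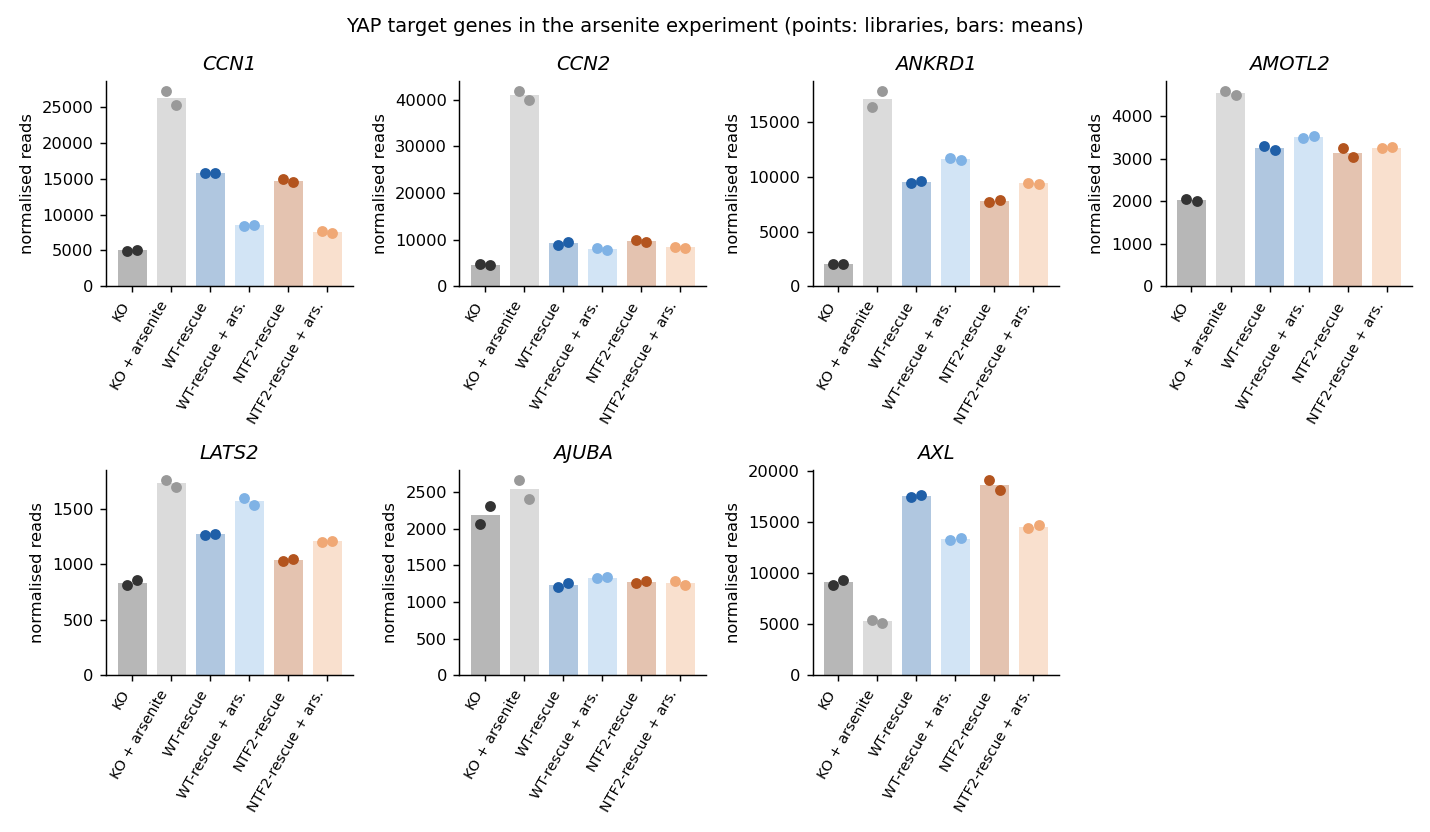
Normalised reads (y axis, linear from 0) of each of the 7 genes in the 6 groups of the arsenite experiment, with points for the 2 libraries of a group and bars for their means. CCN1, CCN2 and ANKRD1 peak in the treated knockout (means 26225, 40906 and 17116), while AXL is lowest there (5251) and AJUBA is lower in all rescue libraries than in all knockout libraries.

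AMOTL2 and LATS2 are the targets that feed back on the pathway: AMOTL2, a member of the angiomotin family, binds YAP at junctions and actin, and LATS2 is the kinase that phosphorylates it. AMOTL2 read 2057 and 1997 normalised reads in KO and 4588 and 4499 with arsenite. Its 4 groups of rescued cells lay close together, from 3028 to 3532, all between the untreated and the treated knockout. In order of level, the treated NTF2-rescue overlapped with the untreated WT-rescue, and the latter with the untreated NTF2-rescue. Arsenite gave 1.16 ± 0.07 in KO (adjusted p 1.1e-56) in the authors' deposited table, against 0.09 ± 0.04 in WT-rescue (adjusted p 0.106) and 0.05 ± 0.06 in NTF2-rescue (adjusted p 0.755).

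LATS2 counted 808 and 856 normalised reads in KO and 1762 and 1699 with arsenite. WT-rescue held 1264 and 1270 without and 1599 and 1531 with arsenite, and NTF2-rescue 1032 and 1043 without and 1202 and 1209 with it. The libraries of no 2 of these 6 groups overlapped. The log2 fold changes with arsenite were 1.05 ± 0.10 (adjusted p 7.27e-25), 0.28 ± 0.06 (adjusted p 1.84e-05) and 0.20 ± 0.08 (adjusted p 0.134) in KO, WT-rescue and NTF2-rescue in the authors' deposited tables. For NTF2-rescue, limma on the recovered reads did call LATS2, at 0.22.

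AJUBA, the LIM adaptor that holds LATS kinases in check at junctions and centrosomes, had the smallest arsenite response of the 7 in the knockout. It read 2065 and 2314 normalised reads in KO, 2676 and 2414 in KO with arsenite, 1204 and 1260 in WT-rescue, and 1328 and 1337 in WT-rescue with arsenite. NTF2-rescue held 1264 and 1291 without and 1293 and 1230 with arsenite. All 8 rescue libraries were below all 4 knockout libraries, and the untreated NTF2-rescue, the treated NTF2-rescue and the untreated WT-rescue overlapped from one to the next. Its arsenite response in the authors' deposited table for the knockout was 0.23 ± 0.09 (adjusted p 0.0439). That call was lost with no filter on low genes, and with limma when the first library of either group was left out (0.15 and 0.14). In the rescues the deposited tables of the authors gave 0.09 ± 0.06 (adjusted p 0.321) and -0.02 ± 0.08 (adjusted p 0.971).

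AXL, the receptor tyrosine kinase, was the one gene of the set that fell with arsenite in the knockout. Its normalised reads were 8853 and 9290 in KO, 5383 and 5119 with arsenite, 17391 and 17623 in WT-rescue, and 13204 and 13393 in WT-rescue with arsenite. NTF2-rescue held 19132 and 18127 without and 14363 and 14659 with arsenite. The treated library pair was the lower one in each of the 3 backgrounds, and all rescue libraries were above all knockout libraries. The authors' deposited tables gave -0.77 ± 0.06 (adjusted p 1.33e-34) in KO, -0.41 ± 0.03 (adjusted p 2.4e-37) in WT-rescue and -0.35 ± 0.04 (adjusted p 1.89e-18) in NTF2-rescue.

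The response to arsenite was then compared between backgrounds, by the difference of the deposited log2 fold changes over their combined standard error. The tables within each difference share no library. Both differences from KO use the same knockout libraries, so they are not independent of each other. Between WT-rescue and KO, 2.68% of 15648 genes had a lower and 1.82% a higher response in the rescue; between NTF2-rescue and KO the shares were 3.08% lower and 4.04% higher. Among the 7 genes, 5 were lower and 1 higher in each case: CCN1, CCN2, ANKRD1, AMOTL2 and LATS2 had lower responses in the rescues, and AXL fell less. In WT-rescue the differences were -3.29 ± 0.07 for CCN1, -3.33 ± 0.07 for CCN2 and -2.76 ± 0.07 for ANKRD1, that is, about as large as the knockout's own response or larger. AMOTL2 differed by -1.07 ± 0.08, LATS2 by -0.76 ± 0.11 (adjusted p 2.25e-09) and AXL by 0.36 ± 0.07 (adjusted p 1.52e-05). For AJUBA the difference was -0.13 ± 0.11 (adjusted p 0.723), with a 95% interval from -0.34 to 0.07.

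Deleting the NTF2 domain made no detectable difference to the arsenite response of these genes. WT-rescue and NTF2-rescue differed in 0 of 7 genes, with differences from -0.06 to 0.11, and 0.328% of all genes differed. None of the 7 reached an unadjusted p under 0.05, and limma called 0, against 0.132% of all genes. The 95% intervals of AJUBA, from -0.08 to 0.30, and LATS2, from -0.11 to 0.28, were wider than those of the other genes, and for CCN1, CCN2 and ANKRD1 the intervals lay within -0.12 and 0.13. A difference from KO of the size seen for CCN1, CCN2 or ANKRD1 is outside all of these intervals.

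**Figure D2:**
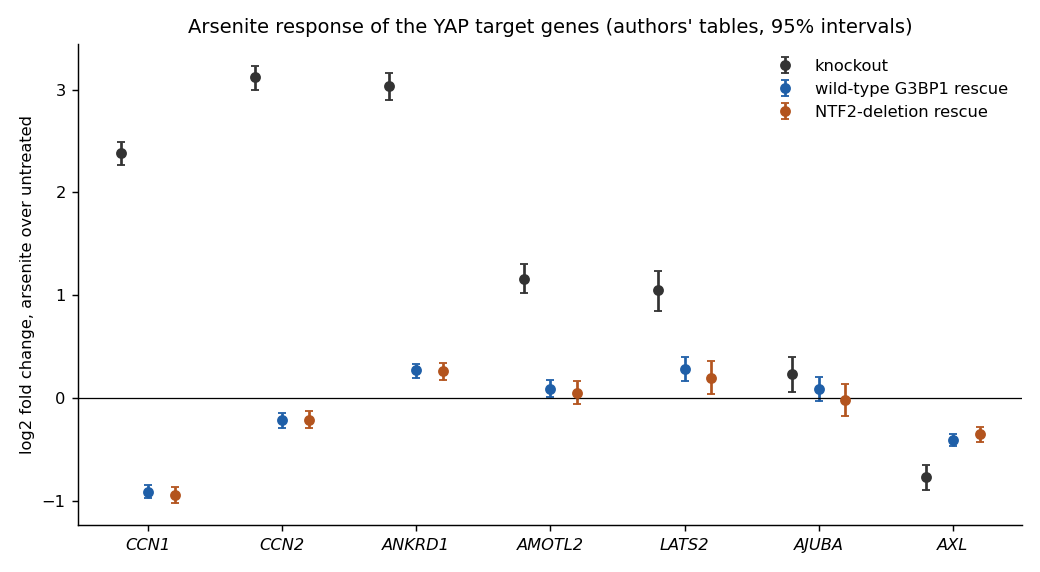
Log2 fold change with arsenite (y axis) in the authors' tables for each gene (x axis) in knockout, WT-rescue and NTF2-rescue cells, with 95% intervals from the deposited standard errors. Knockout values reach 3.12 for CCN2, while both rescues lie together between -0.94 and 0.28 and AXL is the one gene whose rescue values lie above that of the knockout.

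Without stress, 6 of the 7 genes were higher in WT-rescue and in NTF2-rescue than in the untransfected knockout, and AJUBA was lower. Of all tested genes, 23.0% were higher and 19.1% lower in WT-rescue, and 22.8% and 18.7% in NTF2-rescue, so a call by itself says little about a gene. Of the 6 mesenchymal markers 1 was higher and 4 lower in each rescue, with a sum of 52535 and 52920 normalised reads in KO, 36568 and 37058 in WT-rescue and 37762 and 39008 in NTF2-rescue. VWF averaged 131, 13.3 and 15.0 in these groups; the part of these markers in the result was not tested. ANKRD1 was raised most, by 2.22 ± 0.06 on the log2 scale in the authors' deposited table for WT-rescue and by 1.93 ± 0.06 in that for NTF2-rescue. CCN1 came next in the authors' deposited tables, with 1.67 ± 0.05 and 1.58 ± 0.05. CCN2, with 0.99 ± 0.06 and 1.07 ± 0.06, and AXL, with 0.97 ± 0.04 and 1.06 ± 0.05, followed close together. AMOTL2 rose by 0.70 ± 0.07 and 0.65 ± 0.08 and LATS2 by 0.62 ± 0.10 and 0.34 ± 0.11 (adjusted p 0.00606) in the authors' deposited tables. AJUBA fell in them, to -0.80 ± 0.09 (adjusted p 4.79e-18) and -0.75 ± 0.09 (adjusted p 1.11e-15). Genes whose base mean reached 100 had themselves a median of 0.18 and 0.17 on the log2 scale in these tables; relative to it LATS2 in NTF2-rescue was at 0.17 and was not called, and the other calls and directions held.

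CCN2 and CCN1 ranked differently in the 2 contrasts. In KO, arsenite raised CCN2 more than CCN1 (ratios of means 8.75 and 5.24), while in WT-rescue CCN1 was raised more than CCN2 (3.15 and 1.97). AXL separated the contrasts most plainly, since its ratio was 0.579 with arsenite and 1.93 with WT-rescue. AJUBA did the reverse, with 1.16 and 0.563. The order among the genes was therefore not shared between stress and rescue.

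The 2 transgenes were compared with each other through their tables against the same 2 KO libraries, which makes this test conservative. Without arsenite 0 of 7 genes differed, and 0.0185% of all genes did; 1 of the 7, ANKRD1, had an unadjusted p under 0.05, and limma on the recovered reads called 2 (and 1.12% of all genes). The difference was 0.29 ± 0.08 for ANKRD1 (95% interval 0.13 to 0.45) and 0.29 ± 0.15 for LATS2, both higher in WT-rescue. With arsenite ANKRD1 differed by 0.33 ± 0.08 (adjusted p 0.0183), when 0.0785% of all genes differed. Centring the differences on their median, which moved ANKRD1 to 0.31, removed that call, and limma called 4 of the 7 (and 3.09% of all genes). LATS2 differed by 0.40 ± 0.14 with arsenite, and by 0.38 in limma. The normalised reads show the same order: ANKRD1 was at 9476 and 9588 in WT-rescue and at 7706 and 7897 in NTF2-rescue without stress.

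Under arsenite, both rescues differed from the treated knockout for most of the genes, with 45.4% of all tested genes differing for WT-rescue and 43.4% for NTF2-rescue. In WT-rescue CCN2 stood at -2.28 ± 0.08 on the log2 scale and CCN1 at -1.56 ± 0.08. ANKRD1 was at -0.48 ± 0.09 in WT-rescue and at -0.81 ± 0.09 in NTF2-rescue. AMOTL2 was at -0.31 ± 0.10 and -0.44 ± 0.10, AJUBA at -0.88 ± 0.12 and -0.98 ± 0.12, and AXL, the only one higher in the rescues, at 1.38 ± 0.08 and 1.48 ± 0.08. LATS2 was at -0.07 ± 0.13 in WT-rescue (adjusted p 0.70; -0.14 and called by limma) and at -0.48 ± 0.14 in NTF2-rescue (adjusted p 0.00263).

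Treated rescues were also set by the authors against the untreated knockout, and 6 of the 7 genes were higher and AJUBA lower in both comparisons. Of all genes, 25.1% were higher and 19.8% lower in treated WT-rescue, and 23.3% and 19.6% in treated NTF2-rescue. The authors' deposited table for treated WT-rescue gave 2.55 for ANKRD1, 0.97 for LATS2, 0.85 for AMOTL2, 0.84 for CCN2, 0.82 for CCN1, 0.61 for AXL and -0.65 for AJUBA.

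The first experiment asked what the loss of G3BP1 and G3BP2 did to unstressed cells and what a transgene restored. CCN2, ANKRD1 and AMOTL2 were lower without G3BP and came part of the way back in the rescue, CCN1 was lower and did not, and LATS2 passed no test. AJUBA was lowest in the rescue, and AXL was highest there. Marker genes moved with these changes: 5 of 6 mesenchymal markers were lower in the knockout than in wild type (median log2 fold change -0.99), their sum was 328272 and 344938 normalised reads in wild type, 153785 and 163187 in knockout and 212618 and 220802 in rescue, and COL1A1 averaged 155443, 23422 and 72983. The endothelial marker VWF averaged 15.9, 298 and 83.0, and the leukocyte marker PTPRC 42.0, 1.6 and 28.6. The part of these shifts in the results was not tested. In the table of knockout against wild type 1 gene was higher and 4 were lower, when 18.4% of all genes were higher and 19.4% lower.

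CCN2 read 35702 and 33752 normalised reads in wild-type cells, 6498 and 5911 in the knockout and 13459 and 13338 in the rescue. The groups were far apart, and the rescue remained at 0.386 of the wild-type mean. The authors' deposited table gave a log2 fold change of knockout against wild type of -2.48 ± 0.06; its adjusted p is given there as 0. Knockout against rescue gave -1.11 ± 0.05 in the authors' deposited table (adjusted p 1.13e-97).

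ANKRD1 read 24364 and 23547 in wild-type cells, 6777 and 6529 in the knockout and 19289 and 18825 in the rescue. The wild-type mean was still 1.26 times the rescue mean. Its log2 fold change was -1.85 ± 0.05 for knockout against wild type and -1.52 ± 0.04 for knockout against rescue in the authors' deposited tables. AMOTL2 followed the same order with a smaller span, at 10185 and 9268 in wild type, 6754 and 6326 in knockout and 7806 and 8151 in rescue. Its log2 fold changes in the authors' deposited tables were -0.57 ± 0.06 (adjusted p 2.66e-19) and -0.30 ± 0.05 (adjusted p 2.01e-07).

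CCN1 read 23498 and 22882 in wild-type cells, 17264 and 15966 in the knockout and 15595 and 14565 in the rescue, so that the rescue was the lowest. The log2 fold change of knockout against wild type was -0.48 ± 0.05 (adjusted p 4.65e-20) in the authors' deposited table. Knockout against rescue gave 0.13 ± 0.05 (adjusted p 0.0345) in the authors' deposited table, a call lost with no filter on low genes, and with limma when 1 knockout or 1 rescue library was left out (0.08 and 0.09). The second experiment gave the opposite order with a wider gap, since CCN1 there was 3.15 times higher in WT-rescue than in KO. The experiments differ in transgene RNA and in depth, as given above; whether either plays a part was not tested, and levels are not compared across them because they were normalised apart.

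LATS2 read 2614 and 2520 in wild type, 2526 and 2487 in knockout and 2522 and 2573 in rescue. The 3 groups overlapped from one to the next in order of level, and the 95% interval of knockout against wild type, from -0.18 to 0.11, came with an adjusted p of 0.761 in the authors' deposited table. AJUBA read 7783 and 7412 in wild type, 8273 and 8026 in knockout and 6000 and 5980 in rescue. The rescue was the lowest, as in the second experiment, with 0.43 ± 0.05 for knockout against rescue (adjusted p 5.87e-17) and 0.10 ± 0.05 for knockout against wild type (adjusted p 0.163) in the authors' deposited tables. AXL read 25514 and 23360 in wild type, 29162 and 27847 in knockout and 31948 and 33728 in rescue. The authors' deposited tables gave 0.22 ± 0.05 for knockout against wild type (adjusted p 0.000142) and -0.22 ± 0.04 for knockout against rescue (adjusted p 3.29e-06). For AXL the rescue therefore lay farther from the wild type than the knockout did.

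**Figure D3:**
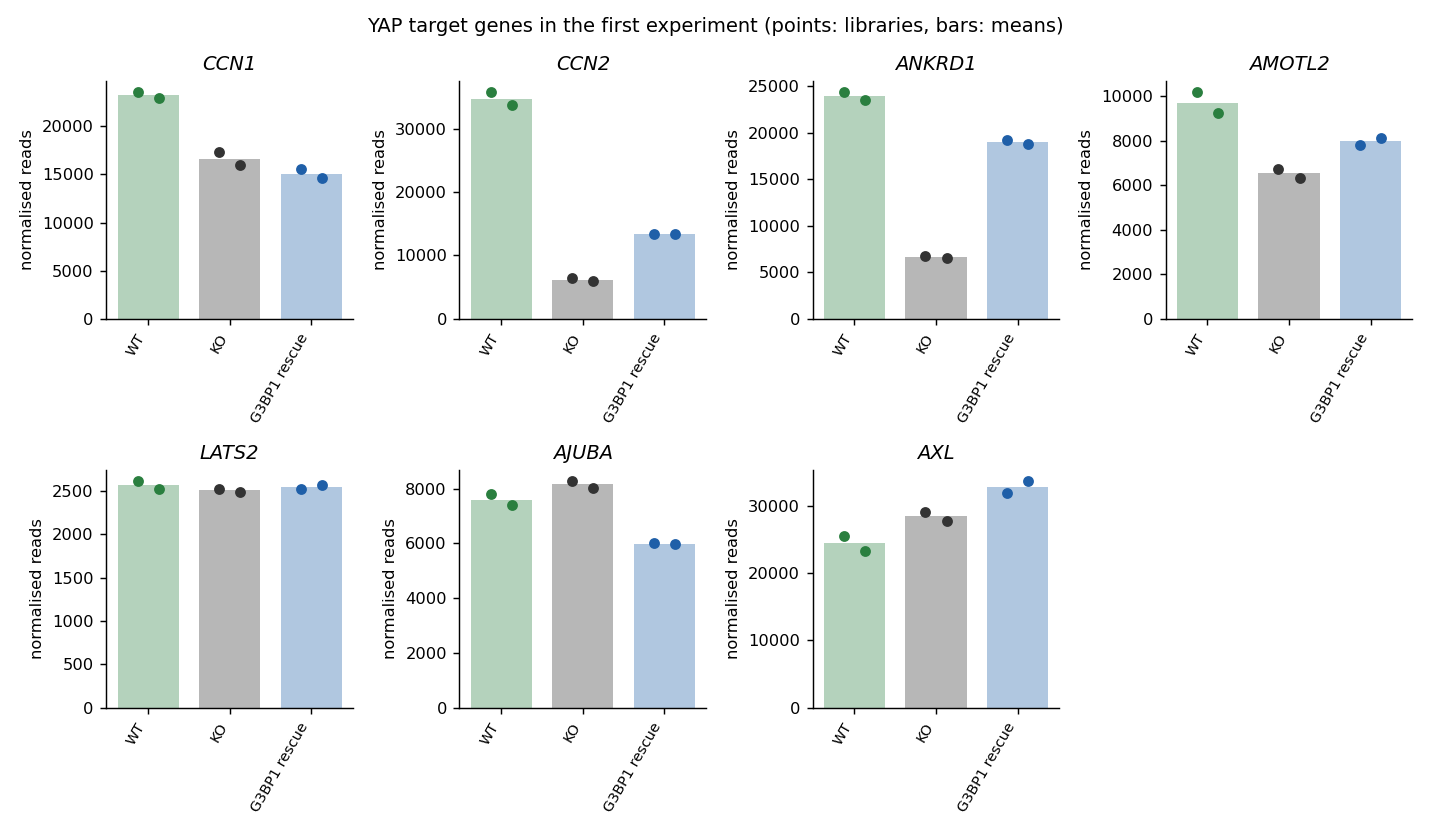
Normalised reads (y axis, linear from 0) of each gene in wild-type, knockout and G3BP1 rescue cells of the first experiment, with points for the 2 libraries of a group and bars for their means. CCN2 falls from a mean of 34727 to 6204 in the knockout and stands at 13399 in the rescue, ANKRD1 is at 23955, 6653 and 19057, and LATS2 is level across the groups.

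Counted over the 3 tables of the first experiment, knockout against rescue called 2 genes higher and 4 lower (16.1% and 21.5% of all genes), and wild type against rescue called 5 higher and 1 lower (15.2% and 20.4%). For wild type against rescue the authors' deposited table put CCN2 at 1.35 ± 0.04, CCN1 at 0.60 ± 0.05, AJUBA at 0.32 ± 0.05, ANKRD1 at 0.31 ± 0.04, AMOTL2 at 0.26 ± 0.05 and AXL at -0.44 ± 0.05. These tables share groups and are not independent of each other.

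Other genes of the pathway were read from lists in the same tables. Of 14 tested genes of a YAP/TAZ signature list that leaves out the 7, 3 rose and 4 fell with arsenite in the knockout, when 8.56% of all tested genes rose and 10.9% fell, with a median log2 fold change of 0.03 against 0.00 over all tested genes and 1.16 over the 7. The risers were led by GADD45A, a growth arrest and DNA damage gene, at 1.67 ± 0.11, and NUAK2, an AMPK-related kinase, at 1.48 ± 0.21, in the authors' deposited table. CRIM1 and FJX1 were lowest in the authors' deposited table, at -0.51 ± 0.07 and -0.38 ± 0.10. The other 7 genes of the list passed no test of the arsenite response in the knockout. Tested as a difference of responses, 3 of the 14 were lower in WT-rescue than in KO, against 2.68% of all tested genes. GADD45A and NUAK2 were the lowest. For NTF2-rescue 2 were lower, NUAK2 and GADD45A, against 3.08%. None was higher in either, against 1.82% and 4.04%. In WT-rescue against KO 7 of the 14 listed genes rose and 6 fell, against 23.0% and 19.1% of all tested genes. The highest in the authors' deposited table were GADD45A at 2.74 ± 0.09 and MYOF, a membrane-repair protein, at 1.51 ± 0.14. The lowest there were RBMS3 at -2.74 ± 0.18 and TGFB2, a TGF-beta ligand, at -3.75 ± 0.08. In knockout against wild type MYOF was the lowest of the list in the authors' deposited table, at -3.16 ± 0.07. F3, which encodes tissue factor, was at -1.66 ± 0.12 in that table.

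The upstream machinery under arsenite is read against the same 8.56% of all tested genes that rose and 10.9% that fell. Of 11 Hippo kinases and adaptors 2 rose and 1 fell in the knockout, with a median of 0.09; FRMD6, a FERM-domain activator of the pathway, was at 0.45 ± 0.08 in the authors' deposited table, TAOK1 at 0.24 ± 0.09 and MOB1A at -0.25 ± 0.09. Of 8 genes for YAP, TAZ, TEAD factors and cofactors 1 rose in the authors' deposited table, VGLL4, a TEAD-binding repressor, with 0.38 ± 0.14 (adjusted p 0.0371). Against wild type, the knockout held less RNA of 7 of the 11 Hippo kinases and adaptors and more of none, when 19.4% of all tested genes were lower and 18.4% higher, with NF2, the merlin tumour suppressor, lowest at -0.89 ± 0.05 and FRMD6 at -0.52 ± 0.05 in the authors' deposited table. Of the 8 genes for YAP, TAZ, TEAD factors and cofactors 3 were higher and 2 lower than in wild type, against the same shares. YAP1 itself was higher in the knockout in the authors' deposited table, at 0.62 ± 0.05 (adjusted p 2.79e-28). WWTR1 was lower there, at -0.21 ± 0.08 (adjusted p 0.0364). In the second experiment YAP1 averaged 2138 normalised reads in KO and 2200 in WT-rescue, and NF2 averaged 3747 and 3601. In WT-rescue against KO 6 of 11 Hippo genes rose and 1 fell, against 23.0% and 19.1% of all tested genes, led by FRMD6 at 1.22 ± 0.06 and STK4, an MST kinase, at 0.79 ± 0.08 in the authors' deposited table; TEAD4 rose (0.78 ± 0.09) and TEAD2 fell (-2.39 ± 0.13).

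Paralogs of the 7 genes were tested for 10 of 13 under arsenite in the knockout, and 2 rose and 3 fell (8.56% and 10.9% of all tested genes). The LIM adaptors WTIP and LIMD1, relatives of AJUBA, were at 0.34 ± 0.13 and 0.23 ± 0.09 in the authors' deposited table, while CCN3 was at -1.02 ± 0.17 and TYRO3, a relative of AXL, at -0.40 ± 0.12. CCN3 thus went the opposite way to CCN1 and CCN2. In WT-rescue against KO 4 of 10 tested paralogs rose and 3 fell, against 23.0% and 19.1% of all tested genes. MERTK, a relative of AXL, was the highest. AMOT, the founding angiomotin, was at -3.37 ± 0.15 in the authors' deposited table, opposite to AMOTL2. LATS1 was at 0.48 ± 0.10 there, in the direction of LATS2.

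Most genes of the actin and SRF list rose with arsenite in the knockout. SRF, with its actin-sensing co-activators, is another transcription factor tied to the cytoskeleton, and CCN1, CCN2 and ANKRD1 are also known as genes that respond to it. Of 13 genes of this list 11 rose and 1 fell, against 8.56% and 10.9% of all tested genes, with a median log2 fold change of 0.99. TAGLN (transgelin) was highest at 4.35 ± 0.10, above all 7 YAP target genes, and CNN1 (calponin) was at 2.61 ± 0.11, while FLNA (filamin A) was at -0.34 ± 0.06, in the authors' deposited table. In WT-rescue 5 rose and 2 fell with arsenite among 12 tested, against 8.18% and 12.2% of all tested genes. In NTF2-rescue 1 rose and 2 fell, against 2.43% and 6.14%. TAGLN was at 0.68 ± 0.08 and 0.36 ± 0.09 in the authors' deposited tables. Tested as a difference of responses, 11 of 13 had a lower response in WT-rescue than in KO, against 2.68% of all tested genes. For NTF2-rescue it was 11 of 13, against 3.08%. The medians were -0.96 and -1.06. Without stress the list did not move together: 4 rose and 7 fell in WT-rescue against KO, against 23.0% and 19.1% of all tested genes. FHL2 was at 1.88 ± 0.11 and TPM1 (tropomyosin 1) at -2.85 ± 0.05 in the authors' deposited table.

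**Figure D4:**
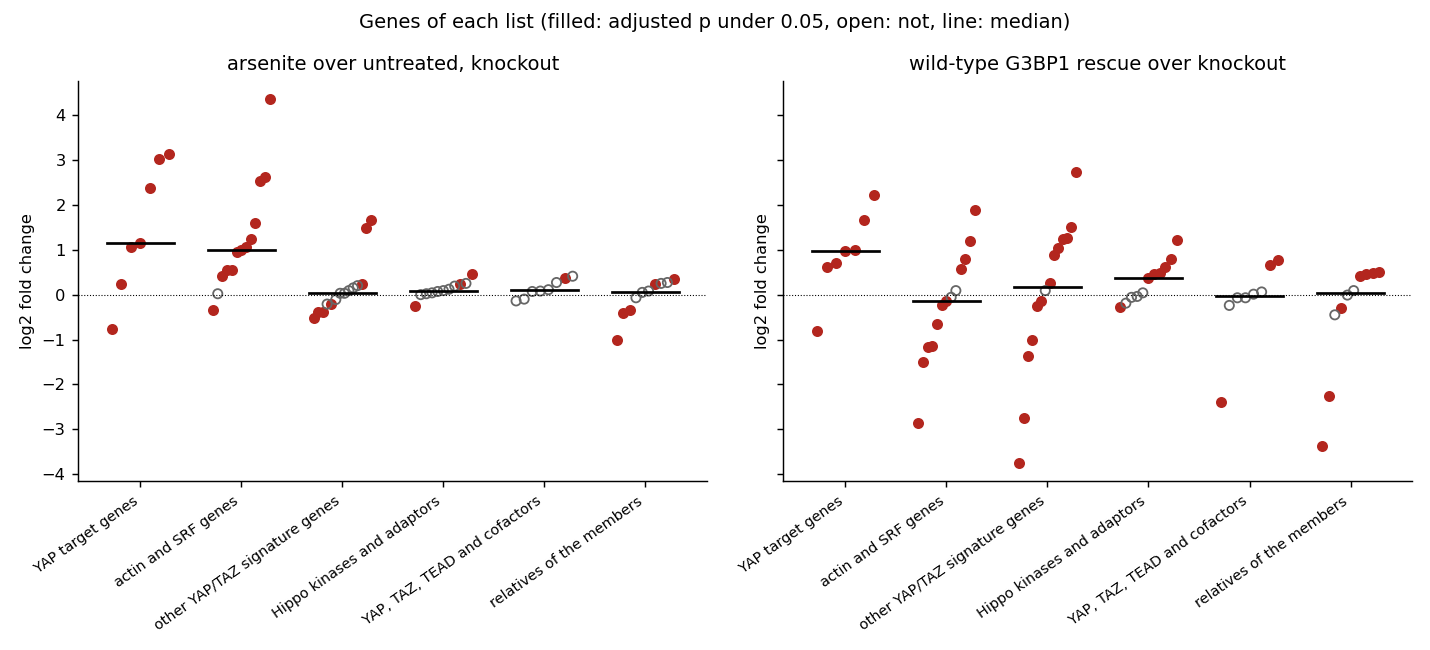
Log2 fold change (y axis) of every tested gene of each list (x axis) for arsenite in the knockout (left) and for wild-type G3BP1 rescue over knockout (right); filled points had an authors' adjusted p under 0.05, open points did not, and lines are medians. On the left the medians are 1.16 for the YAP target genes and 0.99 for actin and SRF genes and lie between 0.03 and 0.10 for the other lists.

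The genes most like each member over the 10 U2OS tables were named by the smallest root mean squared difference of deposited log2 fold changes, among 10055 genes whose base mean reached 100 in all of them. The tables share libraries, so this is a description. For CCN1 the nearest were RHOB, DAPK3 and LIMA1, with root mean squared differences of 0.65, 0.65 and 0.66, and for CCN2 they were LIMA1, THBS1 and NEXN, with 0.68, 0.69 and 0.78. For ANKRD1 they were ELL2 (0.47), MAFF (0.50) and FHL2 (0.52). AMOTL2 had closer neighbours, PLK2 at 0.18 and BDP1 and DLC1 at 0.19, and so did LATS2, with ZNF12 at 0.12, SIRT1 at 0.13 and CCNT2 at 0.14. AXL was nearest to ZDHHC9 (0.11), SLC6A8 and SOAT1 (both 0.15), and AJUBA to PHF2 and RGS12 (both 0.07) and NISCH (0.08). No gene came nearer than 0.65 to CCN1 or 0.68 to CCN2, and genes with smaller changes have nearer neighbours under this measure.

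The RIP table asked which transcripts came down with FLAG-G3BP1 in unstressed 293 cells. None of the 7 was enriched and 2 were depleted, where 24.7% of all tested genes were enriched and 31.4% depleted; 3 of the 7 had an unadjusted p under 0.05. In the authors' deposited table AMOTL2 was at -1.62 ± 0.24 (adjusted p 1.61e-10) and LATS2 at -1.06 ± 0.22 (adjusted p 4.95e-06), with base means of 88.6 and 127 normalised reads. There CCN1 was at 0.40 ± 0.22 (adjusted p 0.105, base mean 136), CCN2 at 0.18 ± 0.36 (adjusted p 0.693, base mean 32.0) and AJUBA at 0.24 ± 0.25 (adjusted p 0.418, base mean 89.7). ANKRD1 had a base mean of only 3.7 and an interval from 0.21 to 3.74; with an adjusted p of 0.0504 in the authors' deposited table it was not called. AXL had a base mean of 1.6, and its interval, from -1.72 to 2.29, left neither enrichment nor depletion detectable at this depth. The Hippo kinases and adaptors were lower in the immunoprecipitate for 9 of 11, with TAOK1 at -2.91 ± 0.15 and MAP4K4 at -2.09 ± 0.11, and higher for 2, STK3 at 0.39 ± 0.16 and MOB1A at 0.29 ± 0.10, in the authors' deposited table. Their median was -1.35, against 0.24 for the 7 genes and -0.26 for all tested genes. Reads of single libraries were not recovered from this table, so values per library are not given.

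**Figure D5:**
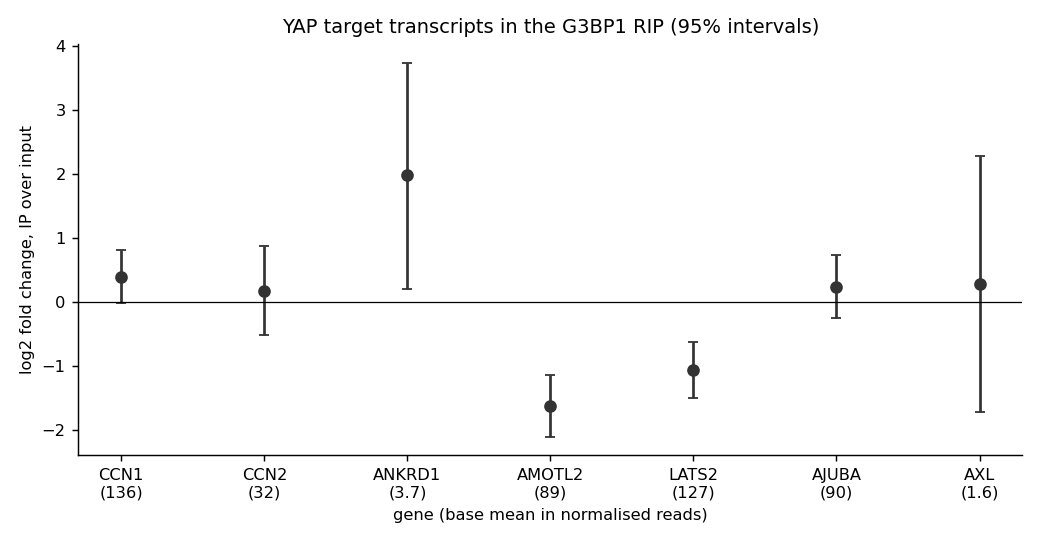
Log2 fold change of immunoprecipitate over input (y axis) of each gene in the authors' RIP table, with 95% intervals from the deposited standard errors and the base mean in normalised reads under each name. AMOTL2 and LATS2 lie below 0, and the intervals of ANKRD1 and AXL are the widest.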

How the data were processed

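The values come from 11 tables of comparisons made with DESeq2 (2.11.40.6), with STAR (2.7.0f and 1.5.3) as aligner, per the submitters' processing notes. Per the labels' protocols, libraries kept strand and were made from poly-A RNA after TRIzol extraction. The genome build and annotation, and whether counting used the strand, are not given in the sources used here. The base mean deposited by the authors is a signal: reads over size factor, averaged over both groups. Fold changes were deposited as log2 values, first group over second, and the deposited standard error and Wald statistic are scores. The deposited p-value and adjusted p-value are the authors' own; an adjusted p under 0.05 was called. Rows that named no gene were left out.

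From the 15 printed digits of the base means, the whole reads of each library were solved over all tables of an experiment: 38466 of 38466 genes with reads in the first and 38909 of 38909 in the second. Libraries are known by group only, and were normalised to the experiment's size factors. The 2 libraries of the 9 groups differed by more than sampling (mean squared standardised difference 1.54 to 2.33, where sampling gives about 1). The labels do not say whether they were separate cultures, so p-values measure the spread between these libraries. For 7 differences between tables, the difference of log2 fold changes was divided by the root of the summed squared standard errors. The test was normal and two-sided, with Benjamini-Hochberg over genes whose base mean reached 10 in both. In 4 of the differences both tables hold the KO libraries. limma (3.58.1, voom, R 4.3.3) was run on recovered reads as an alternative. Other alternatives were centring, other filters on low genes, and Wald statistics scaled by their spread. Scripts were tested on simulated data.

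Named genes are the 7 genes, up to 2 highest and 2 lowest called genes of a list in a comparison, the 3 genes most like each member, and G3BP1 and G3BP2. The members and lists were chosen with earlier results of these data known. In the series 48 of 72 libraries are not analysed here.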

Additional observations from a re-analysis of the deposited data

Results flagged for a closer look

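The arsenite response of 6 of the 7 genes differed between the knockout and each rescue by a test of the difference itself, on the log2 scale. For WT-rescue minus KO the differences were -3.29 for CCN1, -3.33 for CCN2, -2.76 for ANKRD1, -1.07 for AMOTL2, -0.76 for LATS2 and 0.36 for AXL. For NTF2-rescue minus KO they were -3.32 for CCN1, -3.33 for CCN2, -2.77 for ANKRD1, -1.11 for AMOTL2, -0.85 for LATS2 and 0.41 for AXL. CCN1 and CCN2 rose in the knockout and fell in both rescues; ANKRD1 rose in all 3 backgrounds and AXL fell in all 3. Both sets of differences use the same knockout libraries and are not independent of each other. The knockout was untransfected and both rescues were transfected, so these differences cannot be told apart from an effect of transfection.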

How the results depend on the processing

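With each table's Wald statistics divided by their spread over genes, fewer of the 7 genes were called: 0 in the RIP table, 2 for the first knockout set against wild type and 2 when set against its rescue, 1 for wild type set against that rescue, 4 in WT-rescue and 4 in NTF2-rescue against KO, 3 in treated against untreated WT-rescue, and 1 each in treated WT-rescue and treated NTF2-rescue against KO. That spread ran from 1.29 in treated against untreated NTF2-rescue to 9.34 in the RIP table. The scaling therefore lowers the calls over all genes too. The share of all genes called under it is not given here, so these counts cannot be read against a background. Between the transgenes, limma on recovered reads called 2 without arsenite (1 to 1 with a library left out) and 4 with it (2 to 2 with a library left out), where the main test called 0 and 1, and centring the differences called 0 with arsenite. The other 142 alternative values of these counts stayed within 1.5 times the main count, the arsenite response of the knockout among them (6 to 7 with a library left out). No direction of a called value was reversed under the alternatives run. No paired analysis was possible because the recovered reads carry no replicate numbers, so the libraries of a group cannot be paired across groups. With 2 libraries a group, the size of difference that is called varies by gene and by test. CCN2 at -0.21 ± 0.04 with arsenite in WT-rescue was called. Between the transgenes without arsenite, ANKRD1 at 0.29 ± 0.08 was not called by the main test. ANKRD1 and AXL had few reads in the RIP table.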
